A study of Oryza sativa with 12 samples.

Results

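Phenylalanine ammonia-lyase removes ammonia from phenylalanine and releases trans-cinnamate, the first committed step of phenylpropanoid metabolism. The products lead on to lignin, flavonoids and the hydroxycinnamates that cross-link grass cell walls, and cinnamate is also a starting point for salicylic acid. Grasses carry several copies of the gene, and in some grass enzymes tyrosine is a second substrate. The loci described here are a list of locus IDs, with no measured value in the rule: LOC_Os02g41630, LOC_Os02g41650, LOC_Os02g41670 and LOC_Os02g41680 on chromosome 2, LOC_Os04g43760 and LOC_Os04g43800 on chromosome 4, and LOC_Os05g35290 on chromosome 5. They are 7 of the 42004 loci in the deposited table.

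Poly(A) RNA from rice seedlings was sequenced in 12 libraries, 3 in each of 4 groups. The group dm_45C is the double mutant named grp_dm, labelled a knock out of GRP3 and GRP162, after heat at 45 °C, and dm_29C is the same line kept at 29 °C. WT_45C and WT_29C are the japonica cultivar ZH11, the wild type, after the same heat and at 29 °C. All plants grew in Kimura B solution at 29 °C, with 13 h of light a day and 65% humidity, and were 8 days old when heat was applied. The labels give the length of heat as 18 h in one field and 42 h in another. The second gene in the mutant genotype label is GRP162, GRP163 or GRP164, changing with the replicate, while the titles keep the name grp_dm. The labels used here do not describe the alleles, the number of mutant lines, any pooling of plants or whether replicates were separate cultures. The p-values therefore measure the spread between these libraries, which may be technical. The design asks how heat and the mutations alter expression. Tests ran on log2(FPKM + 1), where FPKM is a fragment count scaled to transcript length and library size, over the 20305 loci that reached 1 FPKM in at least 3 libraries. Of the 7 loci 6 did so. An adjusted p (limma, Benjamini-Hochberg over those loci) under 0.05 counts as passing. Read depth is unknown, so no counting interval is given.

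The libraries of 1 group correlated at 0.971 to 0.987 over all loci on the log2 scale, against 0.964 to 0.982 between genotypes at 1 temperature and 0.916 to 0.949 between temperatures. GRP3 (LOC_Os03g46770) and GRP162 (LOC_Os12g43600), glycine-rich RNA-binding protein genes, are those the mutant line is named after. GRP162 lay at 699 and 746 FPKM in 2 libraries of dm_45C and at 218 and 265 in 2 of dm_29C, against 1605 to 3720 in WT_45C and 1002 to 1121 in WT_29C. In replicate 1 of both mutant groups it lay at 12466 and 3288, higher than in any ZH11 library at that temperature. In dm_45C GRP3 lay at 17604 FPKM in replicate 1 and at 10888 and 14023 in the others, against 14427 to 16321 in WT_45C. In dm_29C it lay at 4340 FPKM in replicate 1 and at 1086 and 1355 in the others, against 3879 to 5489 in WT_29C. Replicate 1 of both mutant groups therefore lacked the lower GRP162 and GRP3 RNA of the other mutant libraries. RNA level does not show the alleles, so it cannot settle the genotype of any library. Below, "mutant" refers to the label. The labelled tissue is the whole plant. The leaf gene RBCS2 (LOC_Os12g17600) was at 323 FPKM or more in every library. The other leaf marker, LHCB (LOC_Os01g41710), was lower, at 1.16 to 20.9 FPKM. Of 5 root markers the silicon channel Lsi1 (LOC_Os02g51110) alone reached 1 FPKM in any library, and the nitrate transporter NRT2.1 (LOC_Os02g02170) was at 0 throughout.

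With heat 1 of the 6 tested phenylalanine ammonia-lyase loci, LOC_Os04g43760, fell past the threshold in both genotypes, and none rose past it. Of all loci tested 16.4% fell in the mutant and 15.8% in the wild type, so 1 of 6 lay near the background. The summed FPKM of the 7 loci came almost wholly from 3 of them. LOC_Os02g41630 averaged 182 FPKM over the 12 libraries, LOC_Os04g43760 62.7 and LOC_Os02g41650 25.8. The means of the other 4 loci lay between 0.193 and 1.27 FPKM. LOC_Os12g33610, listed as a phenylalanine ammonia-lyase but outside the 7, had group means of 43.2 to 78.1 FPKM and is described below. LOC_Os02g41630 stood at rank 332 among all loci by mean FPKM, LOC_Os04g43760 at rank 1418 and LOC_Os02g41650 at rank 4178. Ranks and ratios between loci rest on FPKM, which is scaled to transcript length. Closely related copies can share reads, and the sources used here do not say how such reads were assigned, so the split between neighbouring loci is uncertain.

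**Figure D1:**
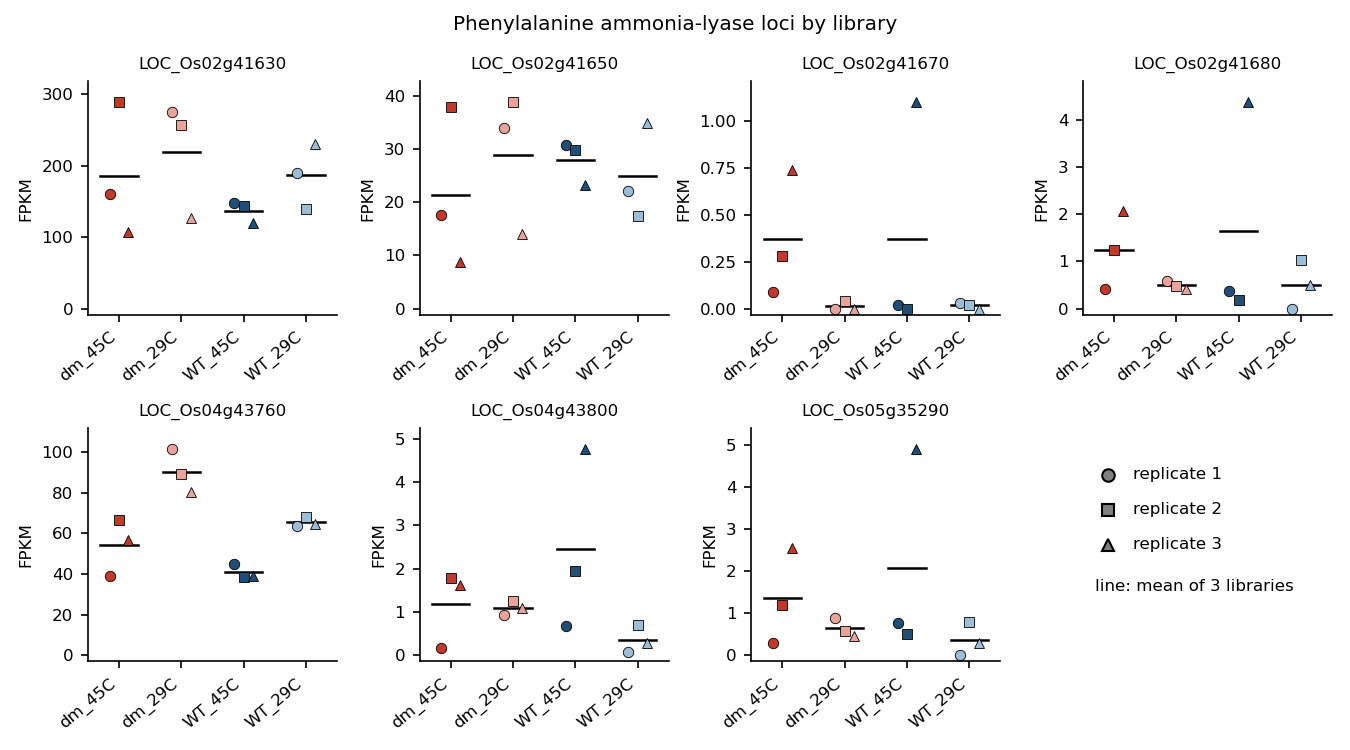
FPKM (y axis, linear, own scale per panel) of each phenylalanine ammonia-lyase locus in the 12 libraries, by group on the x axis. Symbols mark the replicate number and the line is the mean of 3 libraries. LOC_Os04g43760 is the locus whose 45 °C libraries all lie below the 29 °C libraries of their genotype, and WT_45C replicate 3 is the highest library at each of the 4 loci of low level.

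LOC_Os04g43760 was the 1 locus of the family that changed with heat past the threshold. It had 38.8, 66.8 and 56.6 FPKM in dm_45C, against 101.8, 89.5 and 80.3 in dm_29C. It had 45, 38.5 and 39.2 FPKM in WT_45C, against 63.6, 68.3 and 64.4 in WT_29C. Every heated library lay below every unheated library of its genotype. The means were 54 ± 14.2 FPKM in dm_45C and 90.5 ± 10.8 in dm_29C (SD, n = 3 each), a ratio of 0.597, and the log2 difference was -0.76 ± 0.19 (SE; limma adjusted p = 0.00956). In the wild type they were 40.9 ± 3.56 FPKM in WT_45C and 65.4 ± 2.49 in WT_29C, a ratio of 0.625, with a log2 difference of -0.67 ± 0.19 (SE; limma adjusted p = 0.0199). The difference between both heat responses was -0.09, with a 95% interval of -0.68 to 0.49 (limma adjusted p = 0.989). In whole plants, fewer cells of a type and less RNA per cell cannot be told apart. Markers of cell types also moved with heat, and their part in the fall was not tested. Of 5 root markers Lsi1 fell, to 2.13 to 6.45 FPKM in dm_45C, against 36.3 to 52.6 in dm_29C, and to 1.36 to 2.14 in WT_45C, against 24.4 to 38.6 in WT_29C. The other 4 were at 0.83 FPKM or less in every library. All 3 secondary wall cellulose synthases, CESA4, CESA7 and CESA9, were higher with heat in both genotypes, with means of 2.14 to 3.14 FPKM in dm_45C and 0.0167 to 0.37 in dm_29C, and of 1.74 to 2.6 in WT_45C and 0.0367 to 0.283 in WT_29C. They reached 1 FPKM in heated libraries alone, so these values are a description. RBCS2 averaged 655 FPKM in dm_45C and 2344 in dm_29C, and 618 in WT_45C and 1841 in WT_29C, and passed in the mutant alone (limma adjusted p = 0.0115, against 0.0691 in the wild type). The difference between its responses did not pass (adjusted p = 0.978). The other leaf marker, LHCB, averaged 7.45 FPKM in dm_45C and 5.82 in dm_29C, and 4.2 in WT_45C and 14.3 in WT_29C. It passed in neither genotype (limma adjusted p = 0.428 in the mutant and 0.103 in the wild type). The difference between the heat responses of LHCB was 2.0 and did not pass (limma adjusted p = 0.949). The seed storage gene GLUA2 averaged 4.63 FPKM in dm_45C and 5.58 in dm_29C, and 3.31 in WT_45C and 6.47 in WT_29C. Its fall passed in the wild type (limma adjusted p = 0.0237).

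Neither call of LOC_Os04g43760 held under every alternative. In the mutant it ended without both libraries numbered 1, those with high GRP162: the log2 difference was then -0.46 (limma adjusted p = 0.116). In the wild type it ended without WT_45C replicate 2 (limma adjusted p = 0.0616), WT_45C replicate 3 (0.0524) or WT_29C replicate 2 (0.0506), and without both 45 °C libraries numbered 3 (0.061), while the log2 difference stayed between -0.74 and -0.59 over 26 alternatives. Of the 6 members tested, 1 fell in each genotype. Over all loci tested 16.4% fell and 31.7% changed in either direction in the mutant, and 15.8% fell and 29.1% changed in the wild type. Groups did not overlap at 1 of the 6 tested members in the mutant and 1 of 6 in the wild type, against 47.6% and 42.6% of all loci tested.

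**Figure D2:**
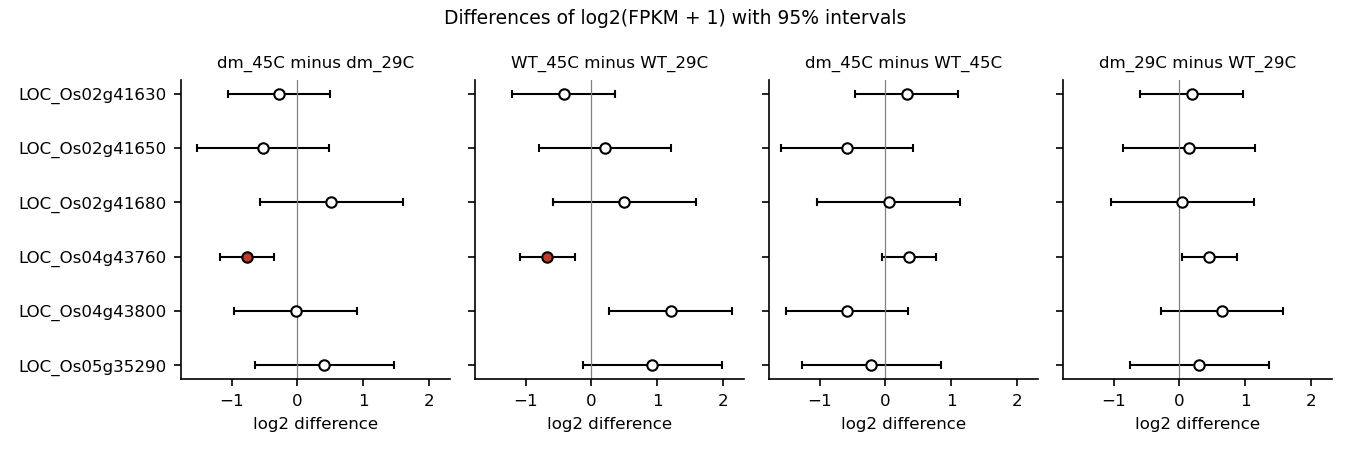
Differences of log2(FPKM + 1) (x axis) with 95% intervals for the 6 tested loci (y axis) in 4 comparisons, from limma. Filled points passed at an adjusted p under 0.05: LOC_Os04g43760 with heat, at -0.76 in the mutant and -0.67 in the wild type. LOC_Os05g35290 entered through heated libraries alone.

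LOC_Os02g41630, the most abundant copy, showed no heat or genotype difference beyond the spread between libraries. Its level was 159.7, 289 and 107 FPKM in dm_45C, against 275, 257 and 127 in dm_29C. In the wild type it was 147, 143 and 119.9 FPKM in WT_45C, against 189, 139.7 and 229.9 in WT_29C. The highest and the lowest of the 12 libraries were both in dm_45C, and the groups overlapped in every comparison. The log2 heat difference was -0.28 in the mutant (95% interval -1.06 to 0.49; limma adjusted p = 0.582) and -0.42 in the wild type (-1.20 to 0.36; adjusted p = 0.409). By mean level the groups ran dm_29C (219.6 ± 80.9 FPKM), WT_29C (186 ± 45.2), dm_45C (185 ± 93.4) and WT_45C (137 ± 14.7; SD, n = 3 each), and each neighbouring pair overlapped.

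LOC_Os02g41650, close by on chromosome 2 by its ID, lay at 17.6, 37.9 and 8.82 FPKM in dm_45C, against 34.1, 38.8 and 14 in dm_29C. It lay at 30.8, 29.8 and 23.2 FPKM in WT_45C, against 22.2, 17.5 and 34.9 in WT_29C. The groups overlapped in every comparison. The log2 heat difference was -0.52 in the mutant (95% interval -1.52 to 0.48; limma adjusted p = 0.42) and 0.21 in the wild type (-0.79 to 1.21; adjusted p = 0.772). Replicate 3 was the lowest mutant library at both chromosome 2 copies and at each temperature, and replicate 2 was the highest of dm_45C at both. Over the 12 libraries the log2 levels of LOC_Os02g41630 and LOC_Os02g41650 had a Pearson correlation of 0.785, given as a description since the libraries share their groups and the copies may share reads.

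The ratio of LOC_Os02g41650 to LOC_Os02g41630, looked at after their values were seen, was 0.11, 0.131 and 0.082 in dm_45C, against 0.124, 0.151 and 0.11 in dm_29C. It was 0.209, 0.208 and 0.194 in WT_45C, against 0.117, 0.125 and 0.152 in WT_29C. The WT_45C libraries lay above the other 9. An exact two-sided permutation test of the log2 ratio gave p = 0.1 for heat in the wild type and for dm_45C against WT_45C, the smallest value that 3 libraries against 3 allow, and p = 0.4 for heat in the mutant and p = 0.7 between the genotypes at 29 °C. None of these can pass 0.05, and they are not adjusted over the 4 comparisons.

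The other 4 loci were low throughout, and their highest values sat in single heated libraries. LOC_Os02g41680 had 0.41, 1.25 and 2.07 FPKM in dm_45C, against 0.59, 0.48 and 0.42 in dm_29C, and 0.37, 0.18 and 4.38 FPKM in WT_45C, against 0, 1.02 and 0.51 in WT_29C. LOC_Os05g35290 had 0.29, 1.2 and 2.55 FPKM in dm_45C, against 0.88, 0.57 and 0.46 in dm_29C, and 0.76, 0.51 and 4.91 FPKM in WT_45C, against 0, 0.78 and 0.28 in WT_29C. In both loci replicate 3 was the highest library of each heated group, and the groups overlapped. The log2 heat difference of LOC_Os02g41680 was 0.51 in the mutant and 0.50 in the wild type (limma adjusted p = 0.464 and 0.485). LOC_Os05g35290 reached 1 FPKM in heated libraries alone and so entered the tests through them. Its log2 heat differences, 0.41 in the mutant and 0.93 in the wild type, are a description, and it did not pass.

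LOC_Os04g43800 had 0.17, 1.77 and 1.62 FPKM in dm_45C, against 0.92, 1.24 and 1.09 in dm_29C. It had 0.67, 1.94 and 4.77 FPKM in WT_45C, against 0.06, 0.7 and 0.28 in WT_29C. The wild type groups overlapped narrowly, through WT_45C replicate 1 and WT_29C replicate 2. The log2 heat difference was 1.21 in the wild type (95% interval 0.28 to 2.14) and just missed the threshold (limma adjusted p = 0.0514; 0.0171 to 0.197 over 25 alternatives). It passed without WT_45C replicate 1 (adjusted p = 0.0171), without dm_45C replicate 1 (0.0322) and without both mutant libraries numbered 1 (0.0418). With single libraries left out, the wild type log2 difference ran from 0.75 to 1.64, and WT_45C replicate 3 held the highest level. In the mutant the log2 heat difference was -0.03 (-0.96 to 0.90; limma adjusted p = 0.968). The difference between both heat responses was -1.23, with a 95% interval of -2.55 to 0.08, and did not pass (limma adjusted p = 0.973).

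LOC_Os02g41670 reached 1 FPKM in 1 library and was not tested. It had 0.09, 0.28 and 0.74 FPKM in dm_45C, against 0, 0.04 and 0 in dm_29C, and 0.02, 0 and 1.1 FPKM in WT_45C, against 0.03, 0.02 and 0 in WT_29C. The mutant groups did not overlap (exact two-sided permutation p = 0.1, the smallest possible), whereas the wild type groups did. Of all loci tested, 47.6% were apart with heat in the mutant and 42.6% in the wild type. With no filter the log2 heat difference of LOC_Os02g41670 was 0.41 in the mutant and 0.34 in the wild type (limma adjusted p = 0.295 and 0.399). The difference between these responses was 0.065 (limma adjusted p = 0.982). Summed, the 4 loci of low level reached 15.2 FPKM in WT_45C replicate 3 and 6.98 in dm_45C replicate 3, against 0.09 to 4.5 in the other 10 libraries. Without both of these libraries the wild type log2 heat difference of LOC_Os02g41680 was -0.19 (limma adjusted p = 0.728).

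**Figure D3:**
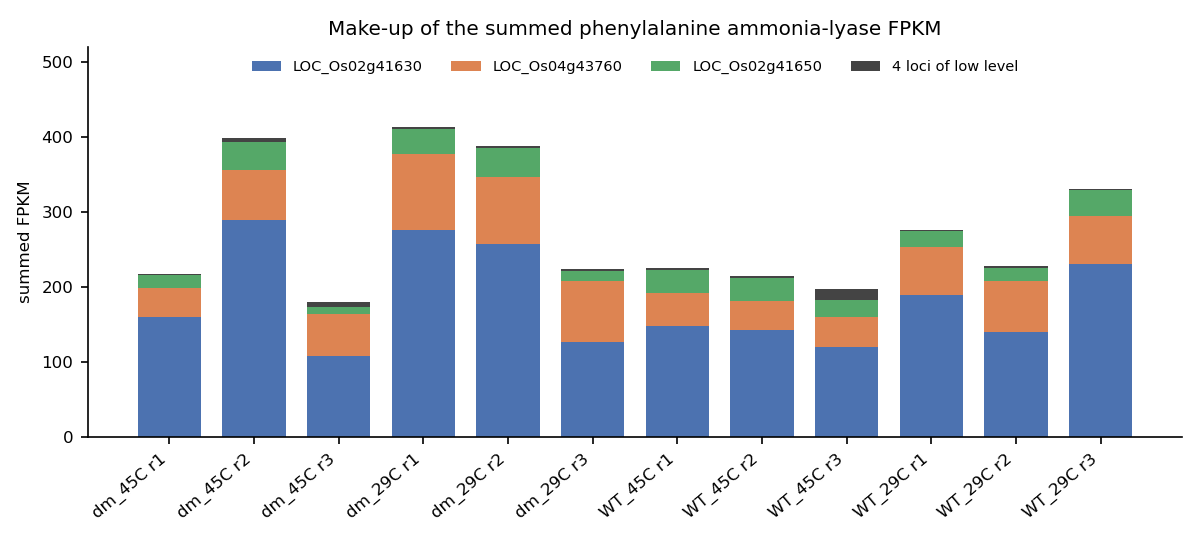
Summed FPKM of the 7 loci (y axis) in each library (x axis; r, replicate), split into the 3 abundant loci and the other 4 together. The sums run from 179.9 to 398 in dm_45C, 223 to 414 in dm_29C, 197 to 225 in WT_45C and 228 to 330.4 in WT_29C, with LOC_Os02g41630 the largest part of each bar.

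The summed FPKM of the family was 265 ± 117 in dm_45C and 341 ± 103 in dm_29C, and 212 ± 13.8 in WT_45C and 278 ± 51.3 in WT_29C (SD, n = 3 each). The mutant sums overlapped between temperatures. The wild type sums were narrowly apart, at 224.8 or less in WT_45C and 228 or more in WT_29C. The sums were not tested, and they leave out LOC_Os12g33610. That locus averaged 78.1 FPKM in WT_45C and 62.5 in WT_29C, with overlap. LOC_Os02g41630 gave 56.9% to 73.6% of the sum in a library, LOC_Os04g43760 16.8% to 36% and LOC_Os02g41650 4.9% to 13.9%. The 4 loci of low level together gave 0.0327% to 3.88% in 11 libraries and 7.68% in WT_45C replicate 3. The share of LOC_Os02g41650 averaged 7.51% ± 2.37 in dm_45C and 8.18% ± 1.88 in dm_29C, and 13.1% ± 1.19 in WT_45C and 8.77% ± 1.58 in WT_29C (SD, n = 3 each).

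Between genotypes no phenylalanine ammonia-lyase locus passed, at either temperature. At 29 °C 0 of 6 tested members passed by limma and 1 had an unadjusted p under 0.05, against 0.241% of all loci passing and 9.78% at an unadjusted p under 0.05. That locus was LOC_Os04g43760, at 80.3 to 101.8 FPKM in dm_29C, against 63.6 to 68.3 in WT_29C, with no overlap. Its log2 difference was 0.46 ± 0.19 (SE; limma adjusted p = 0.473; 0.292 to 0.834 over 26 alternatives). LOC_Os04g43800, at 0.92 to 1.24 FPKM in dm_29C, against 0.06 to 0.7 in WT_29C, also did not overlap (log2 difference 0.65, limma adjusted p = 0.688). Groups were apart at these 2 of 6 tested members and at 14.1% of all loci tested. By mean level LOC_Os04g43760 ran dm_29C, WT_29C, dm_45C and WT_45C, and of the neighbours in that order the first pair alone did not overlap.

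At 45 °C 0 of 6 tested members passed by limma, with 0 at an unadjusted p under 0.05, against 0.0197% and 7.97% of all loci. The groups overlapped at every member, against 13.3% of all loci whose groups were apart. The log2 differences ran from -0.58 at LOC_Os04g43800 and LOC_Os02g41650 to 0.36 at LOC_Os04g43760, with limma adjusted p-values of 0.675 to 0.987. For LOC_Os02g41630 the difference was 0.32 with a 95% interval of -0.45 to 1.10. The heat responses of the genotypes did not differ past the threshold at any of the 6 members (0 by limma, 0 at an unadjusted p under 0.05), against 0.0148% and 5.12% of all loci. The intervals are wide: for LOC_Os02g41630 that of the difference ran from -0.96 to 1.24. The comparisons of heat in each genotype and of the genotypes at each temperature share libraries and are given side by side.

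The rest of the pathway was described with a list of 42 loci, of which 30 were tested. Names came from published locus assignments, and 18 of the 42 are a symbol or synonym of a gene on the same chromosome in the RefSeq gene table of assembly ASM3414082v1. Of the other 24, 17 have a name absent from that table and 5 have no name. For 2, LOC_Os04g33390 and LOC_Os02g41510, the table holds the name on another chromosome, so their assignment is uncertain. These 24 are given by locus ID with the step they are listed under, which no file used here annotates. With heat 2 of 30 rose and 5 fell in the mutant (median log2 difference -0.26, against -0.01 over all loci tested), and 2 rose and 3 fell in the wild type (0.01, against -0.04). Of all loci tested 15.3% rose and 16.4% fell in the mutant, and 13.3% rose and 15.8% fell in the wild type, so the counts in the list lay near or below the background. Of the 8 tested loci of the lignin precursor steps 3 fell in the mutant and 2 in the wild type. Between genotypes 0 of 30 passed by limma at 29 °C and at 45 °C, with 3 and 4 at an unadjusted p under 0.05, in that order, and for the difference between both heat responses it was 0 of 30, with 1 unadjusted. The shares of all loci at an unadjusted p under 0.05 are those given above for the members.

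**Figure D4:**
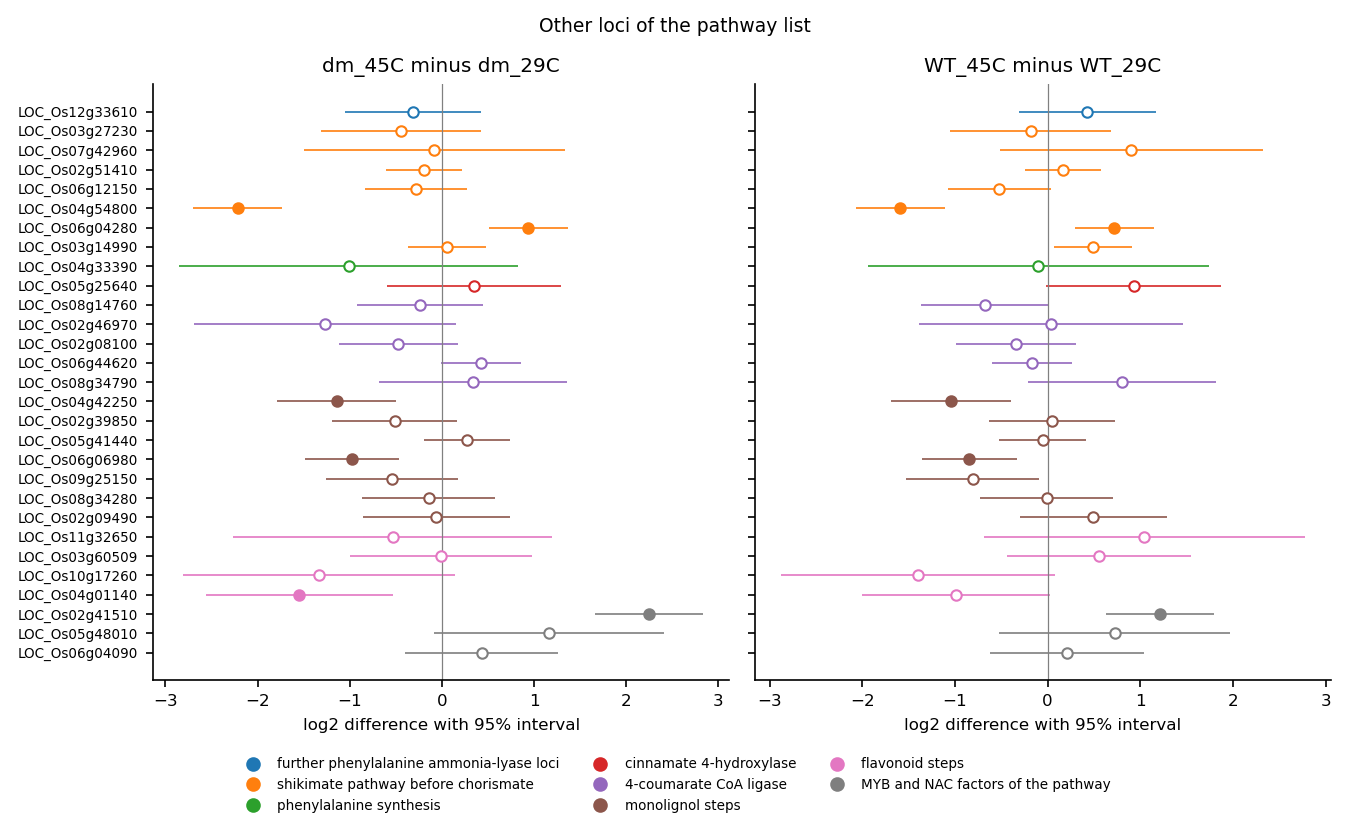
Log2 heat differences (x axis) with 95% intervals of 29 of the 30 tested loci of the pathway list (y axis), in the mutant on the left and the wild type on the right, coloured by step. Filled points passed by limma: of the loci drawn, 4 fell and 2 rose in the mutant, and 3 fell and 2 rose in the wild type.

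Upstream, the shikimate pathway makes the chorismate from which phenylalanine is built. The shikimate kinase SK3 (LOC_Os04g54800) fell with heat in both genotypes. It averaged 3.51 ± 0.607 FPKM in dm_45C and 19.9 ± 0.9752 in dm_29C (log2 difference -2.22, limma adjusted p = 3.31e-05), and 3.57 ± 0.292 FPKM in WT_45C and 13.2 ± 4.1 in WT_29C (-1.59, adjusted p = 0.00032; SD, n = 3 each). LOC_Os06g04280, listed as the enolpyruvyl shikimate phosphate synthase, rose to 43.4 ± 5.43 FPKM in dm_45C, against 22.3 ± 4.2 in dm_29C (limma adjusted p = 0.00355). It rose to 37 ± 7.63 FPKM in WT_45C, against 21.9 ± 3.04 in WT_29C (adjusted p = 0.0162). The wild type call of that locus ended without WT_45C replicate 3 (0.0617), WT_29C replicate 2 (0.0535) or both 45 °C libraries numbered 3 (0.0634). LOC_Os04g33390, listed under phenylalanine synthesis, averaged 5.77 ± 4.91 FPKM in dm_45C and 9.91 ± 2.93 in dm_29C, and 11.9 ± 15.4 in WT_45C and 8.98 ± 8.37 in WT_29C, with no difference that passed.

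The steps that follow the ammonia-lyase did not move as one. LOC_Os05g25640, listed as cinnamate 4-hydroxylase, the next enzyme, averaged 43.1 ± 24.9 FPKM in dm_45C and 30.5 ± 11.7 in dm_29C, and 35.9 ± 14.6 in WT_45C and 17.3 ± 1.83 in WT_29C, and passed in neither genotype. Without dm_45C replicate 1 it passed in the wild type (limma adjusted p = 0.0464). None of the 5 tested 4-coumarate CoA ligases passed with heat, 0 by limma in each genotype. The most abundant, 4CL3 (LOC_Os02g08100), averaged 25.2 ± 13.2 FPKM in dm_45C and 32.5 ± 5.47 in dm_29C, and 19.1 ± 3.24 in WT_45C and 24.3 ± 1.84 in WT_29C. Without dm_45C replicate 2 its log2 heat difference in the mutant passed (-0.85, limma adjusted p = 0.0188).

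Among the lignin precursor genes, HCT1 (LOC_Os04g42250), a hydroxycinnamoyl transferase, fell to 14 ± 4.62 FPKM in dm_45C, against 32 ± 10.8 in dm_29C (limma adjusted p = 0.0116). It fell to 12.9 ± 4.45 FPKM in WT_45C, against 26.7 ± 2.6 in WT_29C (adjusted p = 0.0194). LOC_Os06g06980, listed as a caffeoyl-CoA methyltransferase, fell in both genotypes as well, by log2 differences of -0.98 in the mutant and -0.84 in the wild type (limma adjusted p = 0.00758 and 0.0174). The calls of HCT1 ended without both mutant libraries numbered 1 (log2 difference -0.62, adjusted p = 0.154; -1.14 with all libraries) or dm_29C replicate 1 alone (-0.89, 0.0541). In the wild type, where the log2 difference was -1.04, they ended without WT_45C replicate 1 (-0.79, 0.089) or WT_29C replicate 1 (-0.98, 0.061). That of LOC_Os06g06980 in the wild type ended without WT_45C replicate 1 (0.0718) or 2 (0.0641) or WT_29C replicate 3 (0.0682).

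Of 4 tested flavonoid genes 1 fell, LOC_Os04g01140, in the mutant, where it averaged 4.26 ± 3.85 FPKM in dm_45C and 12.9 ± 6.23 in dm_29C (limma adjusted p = 0.0246). In the wild type it averaged 3.18 FPKM in WT_45C and 7.27 in WT_29C and did not pass (limma adjusted p = 0.133). The groups overlapped in both genotypes, and the difference between both heat responses, -0.56, did not pass (limma adjusted p = 0.978). The mutant call ended in 7 of 26 alternatives, with adjusted p-values up to 0.131, among them without dm_45C replicate 1 or 3, dm_29C replicate 2 or both mutant libraries numbered 1. LOC_Os02g41510, listed among the transcription factors and counted above as 1 of the 2 loci that rose, reached 1 FPKM in heated libraries alone and entered the tests through them, so its values are a description. It had 3.24, 2.6 and 6.06 FPKM in dm_45C, against 0 in all 3 libraries of dm_29C. It had 1.23, 1.56 and 2.12 FPKM in WT_45C, against 0.07, 0.34 and 0 in WT_29C. Another locus listed as a phenylalanine ammonia-lyase, LOC_Os12g33610, which is outside the 7, averaged 43.2 ± 19.2 FPKM in dm_45C and 50.2 ± 2.87 in dm_29C, and 78.1 ± 5.29 in WT_45C and 62.5 ± 32.6 in WT_29C. It passed in no comparison. Between genotypes at 45 °C its groups were apart, at 23.5 to 61.8 FPKM in dm_45C and 71.98 to 81.6 in WT_45C. The log2 difference was -0.94 (limma unadjusted p = 0.0168, adjusted p = 0.555). In that comparison 13.3% of all loci tested were apart and 7.97% had an unadjusted p under 0.05. Its groups overlapped in the other comparisons. LOC_Os11g48110, the other locus so listed outside the 7, stayed at 0.38 FPKM or less.

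Across all tested loci outside the family, the patterns most like that of LOC_Os02g41630 over the 12 libraries belonged to LOC_Os11g47120 (Pearson correlation of log2 levels 0.935), LOC_Os10g02410 (0.916) and LOC_Os02g05680 (0.914). LOC_Os11g47120 was at 0 to 6.4 FPKM. For LOC_Os04g43800, the member with the largest heat difference in the wild type, they were LOC_Os07g40630 (0.94), LOC_Os01g53390 (0.901) and LOC_Os07g38810 (0.892). WT_45C replicate 3 was the highest library for each of these 3, as it was for LOC_Os04g43800. The deposited table does not pair these IDs with names, and with 20299 loci compared the highest values are selected ones.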

How the data were processed

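The authors deposited FPKM for 42004 loci, 1 column per library, per the file headers. Among the tools in the submitters' processing notes are HISAT2 2.0.4 and cutadapt 1.9, along with StringTie 1.3.4d and UMI-tools. Their roles, the build, the annotation and the handling of shared reads were not stated there, and no coordinates are printed. Columns coded WT were matched to titles, and the others were assigned to the mutant by elimination. Low values showed no common step from which reads could be recovered. The tests used 1 limma 3.58.1 fit (R 4.3.3; 12 libraries, 4 group means, intensity trend), tested on simulated data. Fits that left out libraries kept the same loci. Python 3.11.15 with pandas 2.3.3, numpy 2.4.6, scipy 1.17.1 and matplotlib 3.10.9 gave summaries and figures. From each step of the pathway list, up to 3 passing loci, or else the most abundant one, were named, and for 2 members the 3 loci most alike in pattern. One passing locus of the list is counted but not reported here. Members and lists were chosen with earlier results of these data known. Alternatives changed the pseudocount, filter, scaling, model or libraries. Same-numbered libraries deviated together between dm_45C and WT_45C (correlations 0.106 to 0.293 over loci), and in no other pair of groups did all 3 pairs exceed 0.1.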

Additional observations from a re-analysis of the deposited data

How the results depend on the processing

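Over 52 comparisons of single loci and 1335 alternatives, 1251 kept direction and side of the threshold, 22 lost a call, 9 gained one and 53 changed sign, none of these 53 for a called result. Values below are log2 differences unless they count loci, and the cause of each change was not tested. The alternative without both 45 °C libraries numbered 3 was chosen after seeing the data. Of the members tested, 1 rather than 0 rose with heat in the wild type under the replicate block, though the numbers do not pair those groups (LOC_Os04g43800, adjusted p = 0.0208), and likewise 1 without both mutant libraries numbered 1. The number that fell in the wild type was 0 without both 45 °C libraries numbered 3, and in the mutant 0 without both mutant libraries numbered 1. Leaving out single libraries gave 0 to 1 rising and 0 to 1 falling in the wild type. The block changed no other call of a member. Of the pathway list it added falls with heat at 4CL2 (LOC_Os02g46970) in the mutant (adjusted p = 0.0382, against 0.159) and at LOC_Os10g17260, a flavonoid step, in the mutant (0.0353, against 0.156) and the wild type (0.0306, against 0.142), both named after their values were seen. It changed no other call there. With both mutant libraries numbered 1 left out, the heat difference in the mutant was 0.32 at LOC_Os04g43800 and 0.092 at LOC_Os12g33610, the difference between the heat responses was 0.21 at LOC_Os04g43760, the genotype difference at 29 °C was -0.016 at LOC_Os02g41630, -0.026 at LOC_Os02g41650 and -0.00056 at LOC_Os02g41680, and that at 45 °C was 0.16 at LOC_Os05g35290. Without both 45 °C libraries numbered 3, heat gave -0.19 at LOC_Os02g41680 in the wild type and 0.048 at LOC_Os02g41630 in the mutant, and the genotypes at 45 °C gave 0.047 at LOC_Os05g35290. At LOC_Os02g41680 the genotype difference was -0.059 at 29 °C and -0.036 at 45 °C after quantile scaling and -0.017 at 45 °C after median-of-ratios scaling. The difference between its heat responses was -0.088 with a pseudocount of 0.1, -0.039 after median-of-ratios scaling and -0.016 without the 10 most abundant loci in the scaling. Library weights gave 0.23 at LOC_Os05g35290 at 45 °C and -0.065 for the difference between heat responses at LOC_Os02g41630.

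Leaving out single libraries, the heat difference in the wild type ran from -0.0070 to 0.47 at LOC_Os02g41650, -0.19 to 0.90 at LOC_Os02g41680 and -1.11 to 0.67 at LOC_Os04g33390. In the mutant it ran from -0.66 to 0.048 at LOC_Os02g41630, -0.25 to 0.37 at LOC_Os04g43800, -0.62 to 0.060 at LOC_Os12g33610 and -0.059 to 0.90 at LOC_Os05g25640. The genotype difference at 29 °C ran from -0.016 to 0.54 at LOC_Os02g41630, -0.12 to 0.59 at LOC_Os02g41650 and -0.22 to 0.28 at LOC_Os02g41680. At 45 °C it ran from -0.055 to 0.65 at LOC_Os02g41630, -0.35 to 0.75 at LOC_Os02g41680 and -0.58 to 0.41 at LOC_Os05g35290. The difference between the heat responses ran from -0.24 to 0.47 at LOC_Os02g41630, -0.39 to 0.70 at LOC_Os02g41680, -0.26 to 0.12 at LOC_Os04g43760 and -0.89 to 0.099 at LOC_Os05g35290. Over all loci tested, heat in the wild type raised 2701 loci, and 1791 without WT_45C replicate 1, and heat in the mutant lowered 3328, and 1700 without both mutant libraries numbered 1. The small counts between genotypes moved most: at 29 °C 40 loci were higher and 9 lower (10 to 53 and 0 to 11 over the alternatives), at 45 °C 3 and 1 (1 to 31 and 0 to 14), and for the difference between heat responses 0 and 3 (0 to 2 and 0 to 3). No scaling moved the median of all loci by over 0.1. Depth is unknown, so its limit on the loci near 1 FPKM cannot be given.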

Other observations

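WT_45C replicate 3, the library highest at the 4 low phenylalanine ammonia-lyase loci, was also the highest at several pathway loci picked after their values were seen. DAHPS2 (LOC_Os07g42960), which opens the shikimate pathway, lay at 49.9 FPKM there and at 23.2 or less in the other libraries. LOC_Os04g33390 lay at 29.6 FPKM there and at 18.6 or less elsewhere, and 4CL5 (LOC_Os08g34790) at 6.22 there and 5.4 or less elsewhere. The same library was the lowest of all at other loci of the list, among them LOC_Os09g25150 (19.1 FPKM) and LOC_Os04g01140 (1.75 FPKM). There LOC_Os02g41630 was at 119.9 FPKM, the lowest of its group.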
